A study of Mus musculus with 32 samples.

Results

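MPP4 is the multipotent progenitor fraction of mouse bone marrow that is primed for lymphoid fates, and its transcriptome was compared here between mice of 20 months (Aged) and mice of 10 weeks (Young). The comparison used the 4 libraries that the labels name as MPP4, 2 for each age, out of 32 libraries that cover 8 sorted fractions at both ages. The mice were female C57BL/6, and no engineered allele or treatment is named for either age. Cells were sorted as negative for the IL-7 receptor (IL-7 in the labels), lineage antigens and CD150 and positive for Sca-1, c-kit, CD34, CD48 and Flt3, and MPP3, the nearest fraction by surface phenotype, differs from this gate in lacking Flt3. The study states in one place that marrow was pooled and sorted in duplicate and elsewhere calls the duplicates biological, and the number of mice behind a library is not given. The errors and p-values below may therefore cover only technical spread.

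Stem cells give rise to multipotent progenitors, which divide more often and lose the capacity for long-term self-renewal. Flt3, a receptor tyrosine kinase for a cytokine that favours lymphoid and dendritic development, marks the progenitors that lose megakaryocyte and erythroid potential first. MPP4 cells begin to transcribe lymphoid genes such as Dntt, keep the capacity to make granulocytes and monocytes, and feed the common lymphoid progenitor (CLP).

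The genes of the sorting antigens were read first, as CPM, counts scaled to a common library size after TMM (trimmed mean of M values) normalisation. Cd34 was at 1555 and 1632 CPM in Young and 1454 and 1489 CPM in Aged MPP4 and Flt3 at 1059 and 1066 CPM in Young and 682 and 782 CPM in Aged MPP4, so both were abundant at both ages. Slamf1, which encodes CD150, had 3 and 6 counts in Young and 0 and 3 counts in Aged MPP4, and Cd8a and Cd4, antigens of the depleted lineages, were at 0.433 and 0.609 against 0.297 and 0.434 CPM and 10.0 and 10.7 against 2.37 and 3.76 CPM. Il7r, absent by the gate as a surface protein, was at 4.33 and 5.94 against 5.42 and 6.72 CPM. The 5 measured genes of excluded antigens summed to 76.1 and 77.2 CPM in Young and 54.5 and 53.5 CPM in Aged MPP4. Most of that sum lay outside the genes given here, so not every excluded antigen was near 0 in RNA. Among the 5 antigens required by the gate, Cd48 was higher in Aged cells (100.2 and 123 CPM in Young and 181 and 189.8 CPM in Aged MPP4, log2 fold change 0.74, SE 0.10, adjusted p = 2.25e-05). Kit, the stem cell factor receptor, was lower (847 and 823 CPM in Young and 596 and 587 CPM in Aged MPP4, log2 fold change -0.50, SE 0.11, adjusted p = 0.00155). The call of Kit rested on all of the libraries but Young replicate 2: without Young replicate 1 the log2 fold change was -0.48 with an adjusted p of 0.017, without Aged replicate 1 -0.50 with 0.0185 and without Aged replicate 2 -0.49 with 0.0244. Flt3 fell short of the threshold (log2 fold change -0.54, adjusted p = 0.0183), as did Ly6a and Cd34 (log2 fold change 0.35 and -0.11). Each adjusted p is from the quasi-likelihood F-test of edgeR with Benjamini-Hochberg adjustment over the 14154 genes tested, and calls need a value below 0.01, which is the study's own level. SE is an approximate standard error of the log2 fold change or difference. It is the size of that value divided by the square root of its F statistic, so it adds nothing to the p-value.

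Libraries of MPP4 held 12471169 to 15140331 counts, so that 3 counts correspond to 0.186 to 0.228 CPM. The root mean square difference in log2 CPM was 0.519 between the Young duplicates and 0.470 between the Aged duplicates, against 0.712 to 0.739 between libraries of different age. The first principal component of the 4 libraries carried 62.1% of the variance and separated the ages.

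Aged MPP4 expressed many genes of growth and division more highly and a set of regulatory, signalling and stress-responsive genes at lower level. Of the 14154 genes, 1459 (10.3%) were called higher in Aged cells and 888 (6.27%) lower. The changes in the 2 directions were unlike in size. Genes called higher were abundant, with a median level of 99.1 CPM, and moved little, with a median log2 change of 0.50; only 106 of them (7.27%) changed by at least 1. Genes called lower had a median level of 35.0 CPM and a median change of 0.79 in size, and 321 (36.1%) fell by at least 1. Genes called higher made up 21.4% and 22.2% of all counts in Young and 28.8% and 29.2% in Aged libraries, and genes called lower went from 9.78% and 9.47% to 5.59% and 5.70%. Over all genes the median log2 fold change was -0.02, and 6352 genes had a value above 0. The split between directions moved with the settings. It was 62.2% higher here and 52.3% with another scaling, the size factors of DESeq2, which lower all fold changes by 0.05 at the median, 54.0% without a filter on low counts, 52.9% in a fit of the 4 MPP4 libraries alone and 48.6% with the Wald test of DESeq2. Fewer genes were called with a single library in one age: 758 higher and 499 lower without Young replicate 1, 1190 and 592 without Young replicate 2, 1002 and 411 without Aged replicate 1, and 869 and 418 without Aged replicate 2. No gene called here was called in the opposite direction in any of these settings.

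**Figure D1:**
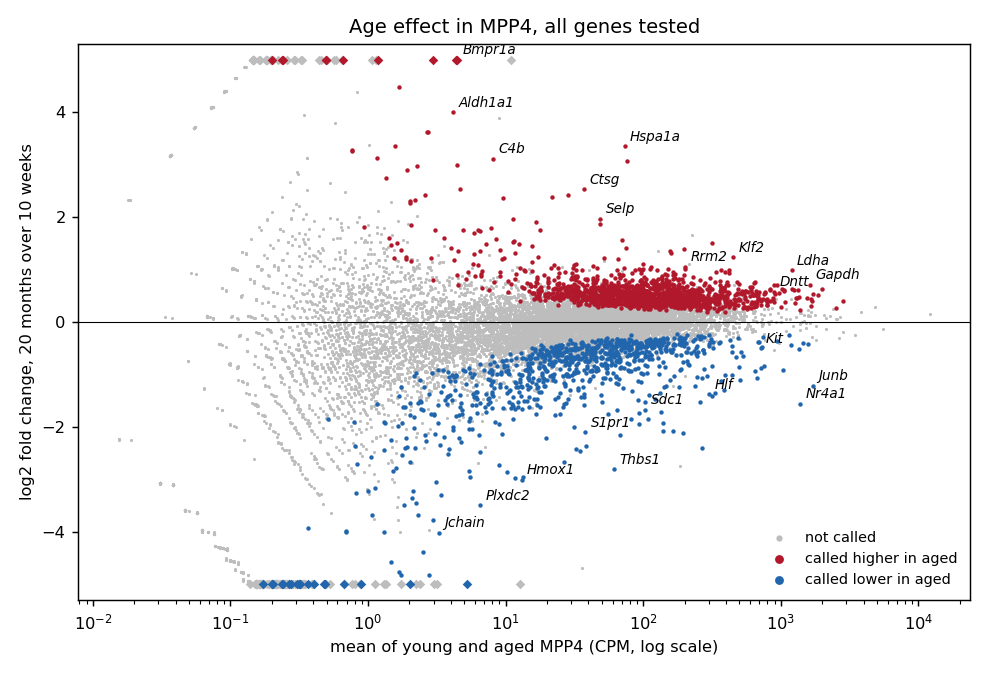
Log2 fold change of Aged over Young MPP4 (y axis) against the mean level in CPM on a log scale (x axis) for all genes tested. Red points mark the 1459 genes called higher and blue points the 888 called lower, and diamonds at the upper and lower edges mark genes beyond 5. The red genes lie mostly at high levels with small changes and the blue genes spread further from 0.

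Many genes of the cell cycle rose. In S phase, when DNA is copied, 25 of 43 measured genes were called higher and none lower, with a median log2 fold change of 0.41 and all 43 above 0. Rrm2 (ENSMUSG00000020649.11, chromosome 12, 24708241 to 24714146, plus strand), a subunit of the ribonucleotide reductase that supplies deoxynucleotides, was at 128 and 133 CPM in Young and 267 and 278 CPM in Aged MPP4. Rrm2 had a log2 fold change of 1.06 (SE 0.08, adjusted p = 6.68e-09). The pairs of libraries did not overlap for Rrm2, nor for the histone chaperone Nasp (73.6 and 67.2 against 117 and 129 CPM, log2 fold change 0.80) or for Uhrf1, which guides maintenance DNA methylation (394 and 374 against 594 and 588 CPM, log2 fold change 0.62). In G2 and M phase 27 of 54 genes were called higher and none lower, with a median of 0.43, and without Aged replicate 2 the number was 16. Among them were Cdk1, the kinase that drives entry into mitosis (102 and 115 CPM in Young and 184 and 187 CPM in Aged MPP4, log2 fold change 0.77), and the mitotic kinases Aurka (63.1 and 75 against 111 and 114 CPM, log2 fold change 0.70) and Aurkb (123 and 121 against 216 and 224 CPM, log2 fold change 0.85). Both Aurora kinases are among the genes that the study chose on these samples, so they are not independent evidence of a direction. Mki67, a common proliferation marker that was looked up after the other values were seen, was not called. It was at 237 and 128 CPM in Young and 233 and 224 CPM in Aged libraries. One of the Young libraries lay above both Aged ones.

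The regulators of the cycle moved in both directions, with 13 of 38 called higher and 10 lower. The mitotic cyclin gene Ccnb1 rose (109 and 117 against 220.4 and 214 CPM, log2 fold change 0.95). Ccne1, which acts at entry into S phase, also rose (10.3 and 10.1 against 26.3 and 22.3 CPM, log2 fold change 1.25), as did Cdk6 (84.2 and 64 against 151 and 156 CPM, log2 fold change 1.05). Tfdp1, the dimer partner of E2F factors, was higher too (393 and 393 against 555 and 579.8 CPM, log2 fold change 0.53). The genes that fell include brakes on the cycle: Btg2 (691 and 698 against 311 and 336 CPM, log2 fold change -1.10) and the kinase inhibitor Cdkn1a (108 and 93.1 against 54.3 and 61.7 CPM, log2 fold change -0.79). Mycn, a growth-promoting factor of the Myc family, also fell (82.2 and 89.6 against 41 and 41.6 CPM, log2 fold change -1.06, adjusted p = 2.59e-04), while Myc, added after its value was seen, was at 358 and 525 against 559 and 449 CPM with overlapping ages. The number called lower was 6 without Aged replicate 1, 6 without Aged replicate 2 and 5 without Young replicate 1. In RNA from bulk samples, a smaller share of cells of one kind and less RNA per cell of that kind cannot be told apart, so these changes do not say how many MPP4 cells were cycling. From uptake of the DNA label EdU in vivo, a separate measurement, the study reported more active cycling of aged multipotent progenitors, MPP4 among them.

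Promoters of these genes are shown because many members rose. The windows are those of RefSeq on build GRCm38.p6, from 250 bases before to 50 bases after each annotated start, and 10646 of the 14154 genes tested had at least 1. The letters TTTCCCGC, TTTGGCGC, TTTCGCGC and TTTGCCGC, the binding letters of E2F factors, were searched on both strands. They were found for 12 of the 31 S phase genes with a window (38.7%) and for 4.52% of all genes with one. The letters TTTGAA and TTCGAA, known as the cell cycle genes homology region (CHR), were found for 36 of 46 genes of G2 and M phase (78.3%) and for 16.4% of all. The share of a list describes its members, whether or not they changed with age. Among all genes called higher, E2F letters were found for 8.13% and CHR letters for 19.9%. Among all genes called lower, the shares were 2.65% and 17.5%. Motifs were searched separately and may overlap one another. The 3 called genes of each list with the smallest adjusted p and a match before the start are given 5′ to 3′ on the strand of the gene, with every match that lies in the stretch shown in capitals, and adjoining or overlapping matches form 1 run:
Uhrf1, chr17:56304117-56304146, plus strand: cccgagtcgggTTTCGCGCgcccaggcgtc
Cdca7, chr2:72476137-72476166, plus strand: tgcgtcccggcGCGGGAAAgccggtggccc
Mcm5, chr8:75109349-75109378, plus strand: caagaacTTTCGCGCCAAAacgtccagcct
Cdk1, chr10:69352913-69352938, minus strand: accgcggcgagTTTGAAactgctggc
Kif2c, chr4:117178859-117178886, minus strand: caggctgctctTTCAAAcctgagtaatg
Ube2c, chr2:164769889-164769916, plus strand: gagggttgcaaTTCAAAcgcgggcggcg

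The first 3 windows hold letters of E2F and the others those of the CHR. Cdca7 was at 419 and 436 against 616 and 629 CPM and Mcm5, a subunit of the replicative helicase, at 525 and 518 against 757 and 744 CPM. The mitotic genes Kif2c and Ube2c were at 48.1 and 49.5 against 83.6 and 90.6 CPM and 92.5 and 98.7 against 150.0 and 165 CPM. A match describes the letters of the window and does not show that a factor was bound in these cells.

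Many genes that make and degrade protein rose as well. Of 55 genes of ribosome biogenesis, 42 were called higher and none lower (median log2 fold change 0.50). Fbl, the methyltransferase that modifies ribosomal RNA, was at 211 and 211 CPM in Young and 344 and 365 CPM in Aged MPP4. Fbl had a log2 fold change of 0.75 (SE 0.07, adjusted p = 7.32e-08). Polr1b, a core subunit of RNA polymerase I, was at 94.9 and 87.7 against 152 and 144 CPM (log2 fold change 0.70, adjusted p = 1.29e-06). By contrast only 2 of the 79 genes for cytosolic ribosomal proteins were called, Rpl5 and Rpl27, both higher (log2 fold change 0.42 and 0.38), with adjusted p values of 0.0276 and 0.142 without Young replicate 1 and of 0.0505 for Rpl27 without Aged replicate 1. Their list had a median of 0.06, which became -0.08 without Young replicate 1, and their calls numbered 9 without Young replicate 2 and 0 without Young replicate 1. Genes for aminoacyl-tRNA synthetases and amino acid supply had 24 of 38 called higher and 1 lower, with a median of 0.53. Mars, the methionyl-tRNA synthetase, was at 133 and 142 against 242 and 246 CPM (log2 fold change 0.83). Iars was at 158 and 158 against 252 and 249 CPM (log2 fold change 0.67). The one that fell was Ddit3, a stress-induced transcription factor (12.6 and 9.74 against 5.56 and 6.87 CPM, log2 fold change -0.84, adjusted p = 0.00285, and 0.0658 without Young replicate 1 and 0.0531 without Aged replicate 1).

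For proteasome subunits 34 of 40 genes were called higher and none lower (median 0.43), with 13 called without Young replicate 1. Psmd13 was at 116 and 138 against 204 and 207 CPM (log2 fold change 0.70). Psmd2 was at 335 and 334 against 464 and 497 CPM (log2 fold change 0.52). Splicing factors and snRNP proteins had 40 of 66 called higher and 2 lower (median 0.40), with 23 called higher without Young replicate 1. Srsf2 was at 613 and 627 against 912 and 928 CPM (log2 fold change 0.57, adjusted p = 2.77e-08) and is again a gene of the study's own choice. The U2 snRNP protein gene Snrpa1 was at 70.7 and 73.6 against 115 and 118 CPM (log2 fold change 0.69), and Srsf5 moved the other way (687 and 587 against 337 and 369 CPM, log2 fold change -0.85).

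Chaperones, which fold new or damaged proteins, had 26 of 38 genes called higher and 2 lower (median 0.44). The rise covered the cytosolic folding chamber, with Cct8 at 359 and 384 against 599.9 and 631 CPM (log2 fold change 0.73). Tcp1 was at 272 and 303 against 446 and 442 CPM (log2 fold change 0.63). The mitochondrial chaperones Hspd1 (347 and 362 against 578 and 621 CPM, log2 fold change 0.76) and Hspa9 (469 and 449.7 against 681 and 694 CPM, log2 fold change 0.58) rose too. The stress-inducible Hsp70 genes Hspa1a and Hspa1b were among the largest rises of all. Hspa1a was at 14.7 and 11.3 against 128 and 139 CPM (log2 fold change 3.35, SE 0.49, adjusted p = 3.10e-05). Hspa1b was at 17.1 and 14.8 against 131 and 140.3 CPM (log2 fold change 3.08, SE 0.48, adjusted p = 5.96e-05). Their proteins are near-identical and so are their transcripts, so the division of reads between them is uncertain. The co-chaperone genes Dnajb1 (325 and 319.8 against 219.9 and 227 CPM, log2 fold change -0.53) and Dnajb4 (log2 fold change -0.48) fell. The call of Dnajb4 was lost without any one of the 4 libraries (adjusted p 0.0182 and 0.023 without Young and 0.0446 and 0.0209 without Aged replicate 1 and 2). Within the endoplasmic reticulum 9 of 34 folding genes were called higher and 4 lower, with a median of 0.04 that became -0.01 with size factors of DESeq2, and 2 were called lower without Young replicate 1 or Aged replicate 1. Calr was at 796 and 778 against 1160 and 1139 CPM (log2 fold change 0.55). The stress-induced Dnajb9 was at 84.2 and 96.6 against 37.5 and 41.9 CPM (log2 fold change -1.19). Heat shock factors bind repeats of GAA, and the letters GAANNTTC or TTCNNGAA, on either strand, were found in the windows of 15 of 32 chaperone genes (46.9%) and of 14.1% of all genes. Among all genes called higher they were found for 14.4%, and among all genes called lower for 16.8%. The windows are chosen as before, with both Hsp70 genes added for their large change:
Hspd1, chr1:55088048-55088077, minus strand: cTTCCGGAAGGTTCTAGAAcggaccgtggc
Cct5, chr15:31601862-31601891, minus strand: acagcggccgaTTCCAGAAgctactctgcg
Fkbp4, chr6:128438789-128438818, minus strand: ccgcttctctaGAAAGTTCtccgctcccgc
Hspa1a, chr17:34972242-34972271, minus strand: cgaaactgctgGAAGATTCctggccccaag
Hspa1b, chr17:34959324-34959353, minus strand: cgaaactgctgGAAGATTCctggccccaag

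The windows of Hspa1a and Hspa1b are the same letter for letter over the 30 bases shown. Cct5 and Fkbp4 were at 505 and 572 against 759.6 and 791 CPM and 399.6 and 424 against 578 and 624 CPM.

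Many genes of energy metabolism were also higher. Nuclear genes of oxidative phosphorylation had 52 of 76 called higher and none lower, with a median of 0.45 and every one of the 76 above 0. In the S phase, G2 and M phase, ribosome biogenesis, proteasome and oxidative phosphorylation lists 0 genes were called lower by edgeR, 0 by DESeq2, and 0 were lower at an unadjusted p under 0.05. The calls of the oxidative phosphorylation list alone depended on single libraries. The number called was 28 without Aged replicate 1 and 13 without Young replicate 1. Cycs, which encodes cytochrome c, was at 153 and 176 CPM in Young and 304 and 292 CPM in Aged MPP4. Cycs had a log2 fold change of 0.85 (SE 0.07, adjusted p = 5.40e-08). Atp5b, the catalytic subunit of ATP synthase, was at 1495 and 1601 against 2224 and 2196 CPM (log2 fold change 0.51, adjusted p = 1.82e-07). Of 26 genes of the tricarboxylic acid cycle 17 were called higher and 1 lower, with 10 higher without Young replicate 1. Citrate synthase (Cs) was at 198 and 197 against 288 and 302 CPM (log2 fold change 0.58, adjusted p = 1.10e-07). Idh2, the mitochondrial isocitrate dehydrogenase named by the study, had a small change (413 and 451 against 538 and 542 CPM, log2 fold change 0.32, adjusted p = 0.00521). Its call was lost with size factors of DESeq2 (adjusted p 0.014) and without Young replicate 1 (0.0843), Aged replicate 1 (0.0212) or Aged replicate 2 (0.0289).

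The glycolysis list, which also holds transporter genes and the growth factor gene Vegfa, was divided, with 11 of 24 genes called higher and 4 lower. Its summed level was 7524 and 7741 CPM in Young and 10552 and 10753 CPM in Aged MPP4. Among those that rose were Gapdh (1203 and 1270 against 2010 and 2045 CPM, log2 fold change 0.71) and Pgam1 (379 and 405 against 562 and 589 CPM, log2 fold change 0.55). The subunits of lactate dehydrogenase, which converts pyruvate and lactate, moved in opposite directions. Ldha (ENSMUSG00000063229.15, chromosome 7, 46841475 to 46855627, plus strand) was at 779 and 827 CPM in Young and 1628 and 1551 CPM in Aged MPP4. Ldha had a log2 fold change of 0.99 (SE 0.06, adjusted p = 1.25e-09). Ldhb was at 125 and 140.5 CPM in Young and 60.5 and 60.3 CPM in Aged MPP4. Ldhb had a log2 fold change of -1.14 (SE 0.13, adjusted p = 1.72e-06). The lactate transporter gene Slc16a1 rose (111 and 119 against 214 and 211 CPM, log2 fold change 0.89). The members of the list that fell besides Ldhb were Vegfa, which encodes no enzyme of glycolysis (log2 fold change -1.67), the glucose transporter Slc2a3 (log2 fold change -0.56) and Aldoc (log2 fold change -1.61). Without Aged replicate 2 Slc2a3 and Aldoc were not called (adjusted p 0.0102 and 0.0135). Cholesterol and fatty acid synthesis had 7 of 29 genes called lower and none higher (median -0.31), with none higher by DESeq2 and 2 higher at an unadjusted p under 0.05. Insig1, the sterol sensor partner, was at 86.8 and 82.5 against 41.6 and 41.4 CPM (log2 fold change -1.03). This list had 3 genes called lower without Young replicate 2, 3 without Aged replicate 1 and 3 without Aged replicate 2.

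**Figure D2:**
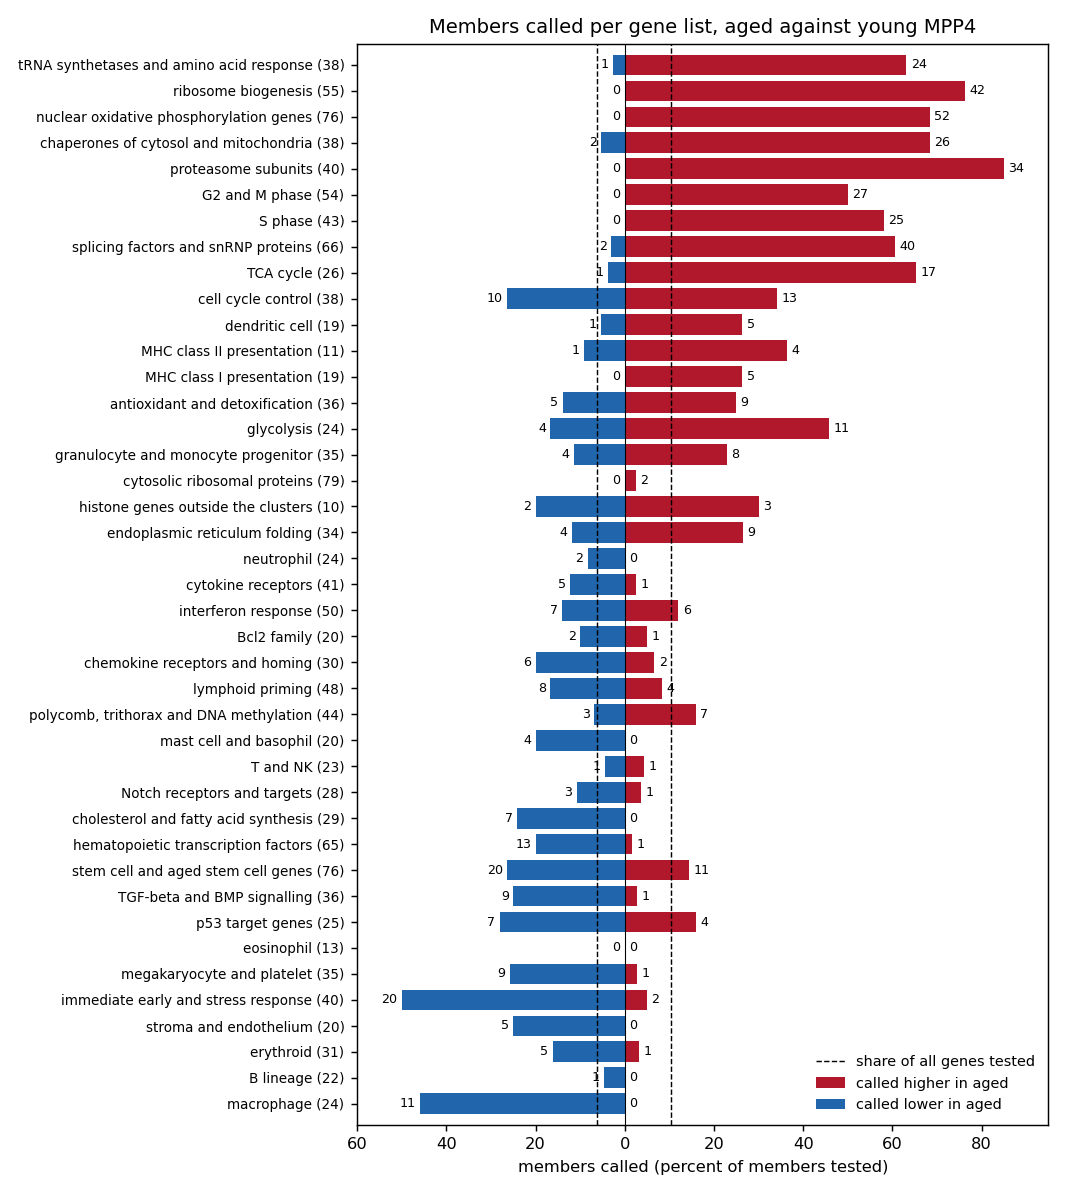
Percent of the measured members of each gene list that were called higher (red, to the right) or lower (blue, to the left) in Aged MPP4, with the number of members tested in brackets and the numbers called beside the bars, and lists of at least 10 members are ordered by median log2 fold change. Dashed lines mark the shares over all genes tested, 10.3% and 6.27%, and proteasome subunits (34 of 40) and immediate early genes (20 of 40) stand farthest beyond them on either side.

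The lymphoid priming genes did not move as a group: 4 of 48 were called higher and 8 lower, with a median of -0.14, and their summed level was 8557 and 8877 CPM in Young and 8502 and 8774 CPM in Aged MPP4. Dntt (ENSMUSG00000025014.13, chromosome 19, 41029275 to 41059525, plus strand), the terminal transferase of early lymphoid cells, rose (687 and 739 CPM in Young and 1045 and 1090 CPM in Aged MPP4, log2 fold change 0.58, SE 0.10, adjusted p = 2.26e-04). Irf8, a factor of dendritic and monocytic cells, and Tcf7, a factor of T cells, were at 68.8 and 72.4 against 99 and 102 CPM (log2 fold change 0.51) and 0.248 and 0.457 against 2.67 and 2.02 CPM (log2 fold change 2.74), and both calls were lost without any one of the 4 libraries, with adjusted p values up to 0.05 and 0.061 without Young replicate 1. Ltb, a lymphotoxin subunit, fell (127 and 145 CPM in Young and 46.4 and 50.3 CPM in Aged MPP4, log2 fold change -1.49, SE 0.12, adjusted p = 2.47e-08). So did Rnase6 (log2 fold change -0.99) and Cnn3 (log2 fold change -0.81). The thymus homing receptor Ccr9 (16.2 and 15.3 against 6.82 and 4.19 CPM, log2 fold change -1.52, adjusted p = 5.46e-04, and 0.0207 without Aged replicate 2) and Hes1, a target of Notch signalling, were lower as well (36.7 and 34.7 against 8.98 and 11.8 CPM, log2 fold change -1.78, SE 0.13, adjusted p = 2.07e-08). With one library left out 2 genes were called higher in each case, and 4 to 6 were called lower (4 without Aged replicate 2). The recombinase genes Rag1 and Rag2, looked up later, were low at both ages, at 2.04 and 2.28 against 0.742 and 0.795 CPM and 9.41 and 7.61 against 7.2 and 6.36 CPM, and Il7r was named above.

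Of 28 Notch receptors and targets 3 were called lower and 1 higher. The targets Hes1 and Nrarp (17.4 and 15.4 against 5.56 and 6.58 CPM, log2 fold change -1.44) fell. Hey1, another target, fell from 59 and 37 counts to 3 and 0 (log2 fold change -4.77, adjusted p = 5.06e-04, and 0.0132 without Aged replicate 2). The E3 ligase gene Dtx4 rose (22.2 and 19.3 against 41.5 and 37.5 CPM, log2 fold change 0.93, adjusted p = 9.68e-04, and 0.0169 without Young replicate 2 and 0.0143 without Aged replicate 1). Notch1 was at 254 and 196 CPM in Young and 157 and 139 CPM in Aged MPP4 and was not called (log2 fold change -0.60, adjusted p = 0.0369).

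Of 65 hematopoietic transcription factors 13 were called lower and 1, Irf8, higher (median -0.33). Hlf, a transcription factor of stem cells, was at 459.7 and 404 CPM in Young and 172 and 162 CPM in Aged MPP4. Hlf had a log2 fold change of -1.37 (SE 0.16, adjusted p = 2.49e-06). Hoxa9 was at 126 and 127 against 58.6 and 71.2 CPM (log2 fold change -0.96). Gfi1b, a transcriptional repressor that acts within the megakaryocyte and erythroid lineages, was at 25.4 and 25.2 against 11.5 and 12.6 CPM (log2 fold change -1.07). Of the factors the study named, Lmo2 (1041 and 1069 against 825 and 819 CPM, log2 fold change -0.36), Runx2 (119.6 and 106 against 78.1 and 84.7 CPM, log2 fold change -0.47) and Irf5 (55.7 and 55 against 34.7 and 34.6 CPM, log2 fold change -0.68) were lower. Irf5 was not called without any one of the 4 libraries (adjusted p 0.0181 without Young replicate 2 to 0.0356 without Aged replicate 2), and Runx2 not without Young replicate 1 (0.0292) or Aged replicate 1 (0.0208). The number called lower was 6 without Young replicate 1, 8 without Young replicate 2, 6 without Aged replicate 1 and 8 without Aged replicate 2. Factors of the same kind that did not pass include Spi1 (196 and 209 against 181 and 188 CPM), Ikzf1 (254 and 228 against 232 and 234 CPM), Runx1 (175 and 172 against 165 and 163 CPM) and Cebpa (46.8 and 45 against 39 and 41.6 CPM), whose values are given by a choice made after they were seen.

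Of 11 genes of antigen presentation by MHC class II, 4 were called higher in Aged cells and 1 lower (median 0.17). H2-Ab1 was at 83.5 and 97.3 CPM in Young and 223 and 228 CPM in Aged MPP4. H2-Ab1 had a log2 fold change of 1.32 (SE 0.18, adjusted p = 1.18e-05). H2-Eb1 was at 20.9 and 21.1 against 77.9 and 75.5 CPM (log2 fold change 1.87). H2-Aa was at 32.4 and 38.7 against 105 and 106 CPM (log2 fold change 1.57). Cd74, the invariant chain, was at 104 and 114 against 276 and 296 CPM (log2 fold change 1.40). H2-Ob, which restrains peptide loading, fell (167 and 189.6 against 66.2 and 63.2 CPM, log2 fold change -1.46, adjusted p = 1.70e-06). Without Young replicate 1 the calls of H2-Aa and Cd74 were lost (adjusted p 0.0225 and 0.0105). The list of dendritic cell genes holds these 4 genes and Irf8, and they made up all of its 5 higher calls among 19, of which 2 were left without Young replicate 1. Class I presentation had 5 of 19 called higher, among them the peptide transporter Tap1 (329 and 344 against 471 and 462 CPM, log2 fold change 0.47) and the immunoproteasome subunit Psmb8 (406 and 481 against 643 and 642 CPM, log2 fold change 0.54), both lost without Young replicate 1 (0.0149 and 0.0143), where 1 gene of the list was called, and 3 were called without Aged replicate 1 or Aged replicate 2. Interferon response genes were divided, 6 of 50 higher and 7 lower, against 10.3% and 6.27% of all genes. The share called higher was thus close to that of all genes. Gbp3 (50.9 and 49.2 against 89.6 and 96.4 CPM, log2 fold change 0.89) and Ifi47 (133 and 157 against 212 and 199 CPM, log2 fold change 0.51) rose. In contrast Irf1 (260.2 and 225 against 139.5 and 148 CPM, log2 fold change -0.76) and Rsad2 (39.8 and 44.5 against 22.3 and 22.8 CPM, log2 fold change -0.90) fell. With one library left out 1 to 5 were called higher and 3 to 5 lower, and Gbp3 was called in none of these settings (adjusted p 0.0121 without Aged replicate 1 to 0.0276 without Aged replicate 2).

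The list of stem cell and aged stem cell genes had 11 of 76 called higher and 20 lower (median -0.34). Part of its members were reported for aged stem cells, and Selp was chosen by the study on these samples. Selp (ENSMUSG00000026580.16, chromosome 1, 164115264 to 164150026, plus strand), the adhesion receptor P-selectin, was at 18.9 and 20.7 CPM in Young and 75.5 and 79.4 CPM in Aged MPP4. Selp had a log2 fold change of 1.97 (SE 0.15, adjusted p = 1.27e-08). Aldh1a1, a retinal dehydrogenase, went from 0.309 and 0.685 CPM to 7.64 and 7.95 CPM (log2 fold change 4.00, SE 0.41, adjusted p = 5.90e-07). Bmpr1a, a BMP receptor, went from 5 and 0 counts to 128 and 109 (log2 fold change 5.61, adjusted p = 1.79e-06). Plscr2, a phospholipid scramblase gene with close relatives, had 0 counts in both Young and 128 and 108 counts in Aged libraries, a log2 fold change of at least 5.39. Clu had only 9 and 17 counts in Young and 12 and 11 counts in Aged MPP4. Members that were lower include Mllt3 and Txnip. Mllt3 was at 27.2 and 29.4 against 13.4 and 14.2 CPM (log2 fold change -1.03). Txnip was at 346 and 368 against 190.2 and 194 CPM (log2 fold change -0.89). The stem cell markers Procr (34 and 36.4 against 16.7 and 17.7 CPM, log2 fold change -1.03) and Fgd5 (22.2 and 20.4 against 8.38 and 6.65 CPM, log2 fold change -1.50) were looked up after their values were seen. The number called higher was 6 without Aged replicate 1, 7 without Aged replicate 2 and 7 without Young replicate 1, and the number lower was 12 without Aged replicate 2.

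Immediate early and stress response genes, which cells induce within minutes of a stimulus, had 20 of 40 called lower and 2 higher (median -0.69). Nr4a1 (ENSMUSG00000023034.7, chromosome 15, 101254269 to 101274795, plus strand), an orphan nuclear receptor, was at 2325 and 1789 CPM in Young and 658 and 743 CPM in Aged MPP4. Nr4a1 had a log2 fold change of -1.55 (SE 0.18, adjusted p = 2.73e-06). Junb was at 2428 and 2380 CPM in Young and 1013 and 1057 CPM in Aged MPP4. Junb had a log2 fold change of -1.22 (SE 0.16, adjusted p = 7.53e-06). The phosphatase genes Dusp5 (476 and 439 against 168 and 176 CPM, log2 fold change -1.41) and Dusp2 (955 and 976 against 543 and 539 CPM, log2 fold change -0.84), Ier2 (1332 and 1376 against 703 and 742 CPM, log2 fold change -0.91) and the survival gene Mcl1 (955 and 739 against 461 and 423 CPM, log2 fold change -0.94) fell as well. Klf2, a factor of quiescence and lymphocyte trafficking, went the other way (264 and 273 CPM in Young and 618 and 643 CPM in Aged MPP4, log2 fold change 1.23, SE 0.22, adjusted p = 2.80e-04). Its target S1pr1, the receptor for sphingosine 1-phosphate, fell (63.7 and 58.8 CPM in Young and 14.5 and 14.1 CPM in Aged MPP4, log2 fold change -2.10, SE 0.13, adjusted p = 9.19e-10). Fosb was higher (log2 fold change 0.62, adjusted p = 0.00624), but not with size factors of DESeq2 (adjusted p 0.0121) or without Young replicate 2 (0.113), Aged replicate 1 (0.0323) or Aged replicate 2 (0.0371). Fos, the most abundant member with 4425 and 4339 against 5207 and 5523 CPM, Jun (1899 and 1779 against 1703 and 1786 CPM) and Egr1 (1972 and 2034 against 1514 and 1631 CPM), added after their values were seen, were not called.

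Of 36 genes of TGF-beta and BMP signalling, 9 were called lower and 1, Bmpr1a, higher (median -0.43). Thbs1, the activator of latent TGF-beta, was at 112 and 101 CPM in Young and 15.2 and 15.4 CPM in Aged MPP4. Thbs1 had a log2 fold change of -2.80 (SE 0.29, adjusted p = 5.94e-07). The inhibitory Smad gene Smad7 was at 173 and 145 against 65.4 and 56.1 CPM (log2 fold change -1.39, adjusted p = 1.30e-06). The receptor gene Tgfbr2 and the effector Smad3, singled out after their values were seen, were at 119 and 116 against 90.4 and 80.4 CPM (log2 fold change -0.46) and 108 and 108 against 78.4 and 78.4 CPM (log2 fold change -0.46). Of 25 target genes of p53, 7 were called lower and 4 higher. Among them were Plk2 (170.1 and 138 against 52.4 and 54.2 CPM, log2 fold change -1.53) and Sesn1 (204 and 214 against 129.7 and 140.1 CPM, log2 fold change -0.63) on the lower side. Gtse1, which also belongs to G2 and M phase, was higher (35.2 and 31.3 against 59.3 and 57.7 CPM, log2 fold change 0.81). Between 1 and 3 of the p53 targets were called higher with one library left out, with 1 without Aged replicate 2. Trp53 itself was at 269 and 296 against 361 and 389 CPM (log2 fold change 0.41, adjusted p = 0.00246, and 0.0488 without Young replicate 1 and 0.0281 without Aged replicate 2). Of 41 cytokine receptor genes 5 were called lower and 1 higher, Kit and Il21r (73.2 and 77.2 against 41.8 and 45.5 CPM, log2 fold change -0.78, adjusted p = 1.43e-04) among the former, and 2 or 3 were called lower with any one of the 4 libraries left out.

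**Figure D3:**
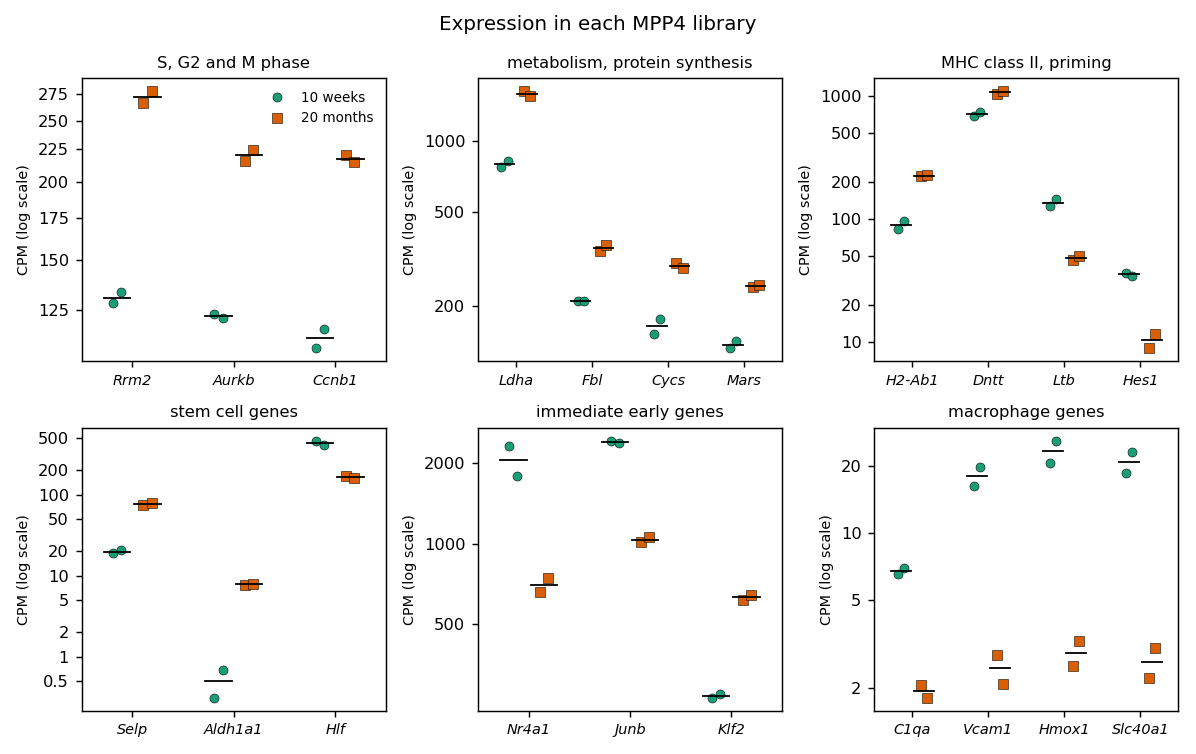
Level in CPM on a log scale (y axis) of 21 genes in each of the 4 MPP4 libraries, with circles for the 2 Young and squares for the 2 Aged libraries and a bar at the mean of each pair. In all of the genes drawn the 2 libraries of one age lie on the same side of both libraries of the other age, as in Ldha (779 and 827 against 1628 and 1551 CPM) and Nr4a1 (2325 and 1789 against 658 and 743 CPM).

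Genes of cell types that the gate should not hold were read next. Of 24 macrophage genes tested 11 were called lower, with a median of -1.76, and 0 were called higher by edgeR or by DESeq2, with 1 higher at an unadjusted p under 0.05. Their summed level was 467 and 512 CPM in Young and 320 and 328 CPM in Aged libraries, and 11 of the 24 were under 5 CPM in each library. The heme oxygenase Hmox1 (ENSMUSG00000005413.8, chromosome 8, 75093621 to 75100589, plus strand) was at 20.6 and 25.9 CPM in Young and 2.52 and 3.25 CPM in Aged MPP4 (log2 fold change -3.00, SE 0.29, adjusted p = 3.61e-07). The iron exporter Slc40a1 was at 18.6 and 23.1 against 2.23 and 3.04 CPM (log2 fold change -2.98, SE 0.22, adjusted p = 8.48e-09). Vcam1 was at 16.2 and 19.7 against 2.82 and 2.1 CPM (log2 fold change -2.86, SE 0.25, adjusted p = 6.44e-08). The lectin genes Fcna and Mrc1 were at 6.25 and 6.16 against 0.89 and 0.361 CPM (log2 fold change -3.30) and 4.58 and 6.54 against 0.519 and 0.795 CPM (log2 fold change -3.06, adjusted p = 3.72e-04, and 0.0119 without Aged replicate 1). Of the complement gene C1qa, the receptor Csf1r and Adgre1, which encodes F4/80, looked up after the rest, C1qa was at 6.5 and 6.93 against 2.08 and 1.81 CPM (log2 fold change -1.78, adjusted p = 0.00103). Csf1r was at 22 and 19.4 against 28.9 and 26.1 CPM (not called) and Adgre1 at 1.24 and 2.28 against 0.297 and 0.217 CPM (not called). The number called lower was 7 without Aged replicate 1 and 7 without Aged replicate 2. The part of macrophage RNA in the lower expression of Hmox1, Slc40a1 and Vcam1 was not tested.

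Megakaryocyte and platelet genes had 9 of 35 called lower and 1, Selp, higher. Thbs1, Nfe2 (301 and 371 against 219 and 225 CPM, log2 fold change -0.60, adjusted p = 9.86e-04, and 0.0227 without Young replicate 2 and 0.0118 without Aged replicate 1) and Gp9 (8.29 and 9.51 against 3.78 and 3.25 CPM, log2 fold change -1.34) were among the 4 with the smallest adjusted p. Between 4 and 6 were called lower with one library left out. Ppbp, a platelet chemokine gene, had 14 and 23 counts in Young and 2 and 0 counts in Aged MPP4. Of 31 erythroid genes 5 were called lower and 1 higher. Car2, a carbonic anhydrase, was at 858 and 1007 against 490.0 and 532 CPM (log2 fold change -0.87). The transferrin receptor Tfrc was at 28.3 and 25.9 against 45.8 and 50.2 CPM (log2 fold change 0.82, adjusted p = 9.46e-04, and 0.0168 without Young replicate 2 and 0.0183 without Aged replicate 2). Any one library left out gave 2 or 3 lower. The list summed to 1895 and 2251 CPM in Young and 1100 and 1136 CPM in Aged libraries. For mast cells and basophils 4 of 20 genes were called lower, and the protease gene Prss34, which has close relatives, went from 145 and 156 counts to 0 in both Aged libraries, a log2 fold change of -5.57 or lower. Without Aged replicate 2 the mast cell and basophil list had 2 genes called lower. Of the B lineage list 1 of 22 genes was called lower, and of the T and NK list 1 of 23 was called higher and 1 lower, and 18 and 19 of their members were under 5 CPM in every library. These shares, 4.55% and 4.35%, lay below those of all genes, 10.3% higher and 6.27% lower. The 3 calls of the B lineage and the T and NK lists were all lost without Young replicate 1. All 13 eosinophil genes tested were under 5 CPM in every library.

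Neutrophil genes had 2 of 24 called, Lyz2 and Lyz1, both lower (242 and 298 against 176 and 181 CPM and 41 and 53.6 against 29.9 and 28.8 CPM, log2 fold change -0.60 and -0.69), with Lyz1 lost without Young replicate 2 (adjusted p 0.0139), and summed to 1038 and 1118 CPM in Young and 955 and 988 CPM in Aged libraries. The share of neutrophil genes called lower, 8.33%, was close to the 6.27% of all genes. Genes of granulocyte and monocyte progenitors had 8 of 35 called higher and 4 lower. Without Young replicate 1 the counts were 3 higher and 2 lower, and without Young replicate 2, Aged replicate 1 or Aged replicate 2 only 1 was called lower. The granule protease gene Ctsg (ENSMUSG00000040314.2, chromosome 14, 56099881 to 56102574, minus strand) was at 11 and 11 CPM in Young and 61.9 and 65.6 CPM in Aged MPP4. Ctsg had a log2 fold change of 2.54 (SE 0.28, adjusted p = 1.06e-06). The other granule protein genes Prtn3 (131 and 147 against 222 and 222 CPM, log2 fold change 0.68, adjusted p = 0.00307), Mpo (621 and 651 against 569 and 597 CPM, not called) and Elane (6.68 and 7.53 against 2.89 and 2.96 CPM, not called), read after their values were seen, did not share the size of that change.

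Among all genes of at least 5 CPM the largest falls were led by Prss34, followed by Car1 (96 and 63 counts in Young and 5 and 0 counts in Aged MPP4, log2 fold change -4.82, adjusted p = 0.00401, and 0.028 without Young replicate 1, 0.0206 without Aged replicate 1 and 0.059 without Aged replicate 2). Jchain, the joining chain of immunoglobulins, came next (4.52 and 7.76 against 0.371 and 0.361 CPM, log2 fold change -4.02, SE 0.61, adjusted p = 9.67e-05). Further down were Mpdz (7.43 and 3.65 against 0.297 and 0.506 CPM, log2 fold change -3.77) and Plxdc2 (13.5 and 10.4 against 1.19 and 0.94 CPM, log2 fold change -3.49). They included Hmga2, a chromatin protein of fetal stem cells (11.3 and 8.07 CPM in Young and 1.04 and 1.45 CPM in Aged MPP4, log2 fold change -2.96, SE 0.40, adjusted p = 1.35e-05). Another was Rftn2 (22.3 and 24.7 against 3.04 and 3.04 CPM, log2 fold change -2.95). The largest rises include Plscr2 and Clec1a (0 and 0 counts against 75 and 87, at least 4.84 on the log2 scale), whose place is open since only a bound can be given, and Bmpr1a and Aldh1a1. Besides both Hsp70 genes, Ggt1, Apob, the complement gene C4b, Tmem215 and Bcat1, an aminotransferase of branched-chain amino acids, also rose, with log2 fold changes of 3.62, 3.62, 3.12, 2.99 and 2.54. Of these C4b was at 1.98 and 1.29 against 14.5 and 14.4 CPM and Bcat1 at 0.866 and 1.9 against 6.23 and 9.54 CPM. In CPM rather than ratio the largest gains were those of Eif5a (1519 and 1604 against 2407 and 2409 CPM), Ppia (2276 and 2570 against 3235 and 3186 CPM; adjusted p 0.0178 without Young replicate 1), Ldha, Gapdh, Atp5b and Tuba1b (1333 and 1480 against 2030 and 2046 CPM). The largest losses in CPM were those of Junb, Nr4a1, Ier2, Ftl1 (1494 and 1681 against 1077 and 1156 CPM), Gcnt2 (885 and 923 against 435 and 433 CPM) and H3f3b (1858 and 1765 against 1328 and 1390 CPM).

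How far these changes were shared with other fractions was asked with the calls in each fraction. These rest on separate libraries but on the same model. Since the study states that marrow was pooled and sorted in duplicate, fractions of one age may come from the same mice. Shared calls may therefore not be independent of one another. Of the genes called higher in Aged MPP4, 62.5% were also called higher in MPP3, 38.0% in MPP1, 38.5% in MPP2, 18.5% in hematopoietic stem cells (HSCs) and 4.18% in CLPs, and of those called lower 53.2%, 25.3%, 35.4%, 11.8% and 12.3%. Among all genes tested, the shares called higher in these fractions were 8.14% in MPP3, 4.71% in MPP1, 4.49% in MPP2, 3.74% in HSCs and 5.71% in CLPs, and the shares called lower 5.79%, 2.09%, 3.31%, 1.66% and 4.73%. In CLPs the share called higher was therefore below that of all genes. Seen from the other side, 79.2% of the genes called higher in MPP3 and 7.55% of those in CLPs were called higher in MPP4. In CLPs 249 of the genes higher in MPP4 (17.1%, against 4.73% of all genes) were called lower, and 119 of the genes lower in MPP4 (13.4%, against 5.71%) were called higher. The median log2 fold change of ribosome biogenesis genes was 0.14 in HSCs, 0.21, 0.27 and 0.31 in MPP1, MPP2 and MPP3, 0.50 in MPP4 and -0.15 in CLPs, and of proteasome genes 0.14, 0.26, 0.33, 0.35, 0.43 and -0.13. S phase genes did not keep that order, with 0.34, 0.57, 0.26, 0.49, 0.41 and -0.38.

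**Figure D4:**
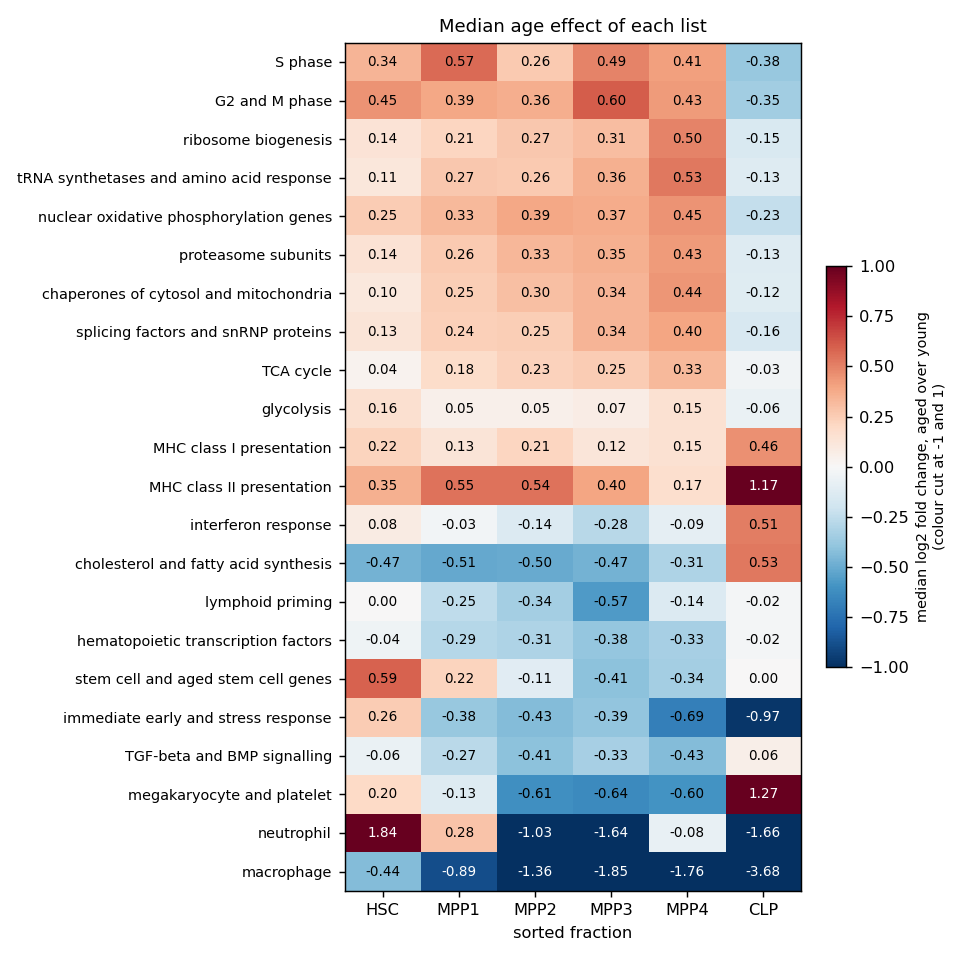
Median log2 fold change of Aged over Young cells for 22 gene lists (rows) in HSCs, MPP1, MPP2, MPP3, MPP4 and CLPs (columns), with the value printed in each cell and the colour running from blue at -1 to red at 1. In MPP4 the lists of growth and division that are drawn lie between 0.15 (glycolysis) and 0.53 (tRNA synthetases). CLPs show values below 0 for the same lists, -0.38 for S phase among them. Cytosolic ribosomal proteins (0.06 in MPP4) and endoplasmic reticulum folding (0.04 in MPP4) are not drawn.

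The difference in age effect between MPP4 and MPP3 was tested directly. Few genes differed: 22 (0.155%) had a greater log2 fold change in MPP4 and 3 (0.0212%) a smaller one, and by DESeq2 57 and 21. No gene of the S phase, G2 and M phase, ribosome biogenesis, proteasome or oxidative phosphorylation lists was among the calls by edgeR or by DESeq2. Of these lists 5, 4, 7, 3 and 0 genes had an unadjusted p under 0.05, with median differences of -0.08, -0.13, 0.15, 0.06 and 0.06. In simulated counts, with changes placed only in genes above a set mean count, 51% of genes with a difference of 1 on the log2 scale were recovered. Differences of the size of these medians may therefore have gone undetected in single genes. Of the 22 genes with a greater effect in MPP4, 6 are in the granulocyte and monocyte progenitor list, 3 in the neutrophil list and 3 in the lymphoid priming list, which share some genes. Ctsg had the pair of log2 fold changes 2.54 in MPP4 and -0.04 in MPP3 (difference 2.58, SE 0.37, adjusted p = 9.37e-04). Hp, which encodes haptoglobin, was at 0.495 and 0.989 against 3.63 and 3.69 CPM in MPP4 and 32.8 and 37.5 against 11.8 and 12.3 CPM in MPP3 (difference 3.88, SE 0.45, adjusted p = 1.26e-04). C3 was at 0.681 and 0.685 against 2.82 and 3.83 CPM and 30.5 and 30.1 against 8.71 and 9.18 CPM (4.03, SE 0.60, adjusted p = 0.00137). Xdh was at 0.928 and 1.37 against 1.63 and 3.61 CPM and 12.2 and 12.5 against 2.61 and 2.55 CPM (3.46, SE 0.42, adjusted p = 1.66e-04). In the same libraries the summed neutrophil genes went from 2516 and 2557 CPM in Young MPP3 to 1067 and 1223 CPM in Aged MPP3, with 16 of 24 called lower there. Several of these differences held a fall in MPP3 rather than a rise in MPP4. Chil3 (log2 fold change 0.04 against -2.48), Ngp (log2 fold change 0.22 against -2.36) and Lcn2 (log2 fold change 0.46 against -2.27) are examples chosen after their values were seen. The part of neutrophil RNA in these differences was not tested.

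Ap3s1, chosen after its values were seen, differed without such a fall, with a log2 fold change of 1.07 in MPP4 and 0.03 in MPP3 (difference 1.03, SE 0.15, adjusted p = 9.37e-04). Tcf7 rose in MPP4 and was at 10.00 and 9.92 against 3.08 and 1.82 CPM in MPP3 (difference 4.75, SE 0.78, adjusted p = 0.00392). Of the 3 genes with a smaller effect in MPP4 the first was the mast cell protease gene Cpa3 (5.45 and 5.78 against 1.63 and 2.17 CPM in MPP4 and 177 and 178 against 214 and 217 CPM in MPP3; -1.83, SE 0.21, adjusted p = 1.26e-04). The others were the proteoglycan gene Sdc1 (153 and 161 against 50.7 and 47.6 CPM and 37.9 and 41 against 25.8 and 26.1 CPM; -1.07, SE 0.19, adjusted p = 0.00687) and Tmem158 (52 and 56 against 19.3 and 20.7 CPM and 19.6 and 19.5 against 14.7 and 15.5 CPM; -1.06, SE 0.19, adjusted p = 0.0088). Levels of Cpa3 were thus far lower in MPP4 than in MPP3 at both ages. With one library left out 8 genes were greater and 1 smaller without Young replicate 1, 10 and 2 without Young replicate 2, 12 and 3 without Aged replicate 1, and 5 and 1 without Aged replicate 2. Sdc1, Tmem158 and Tcf7 were called in none of these 4 settings, with adjusted p values of up to 0.0623 and 0.0578 without Aged replicate 2 and 1 and 0.0652 without Young replicate 1. With the replicate number as a block Sdc1 and Tmem158 were not called (adjusted p 0.0104 and 0.0121). The difference of C3 was lost without Young replicate 1 (0.0227), Young replicate 2 (0.016) or Aged replicate 2 (0.0354).

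**Figure D5:**
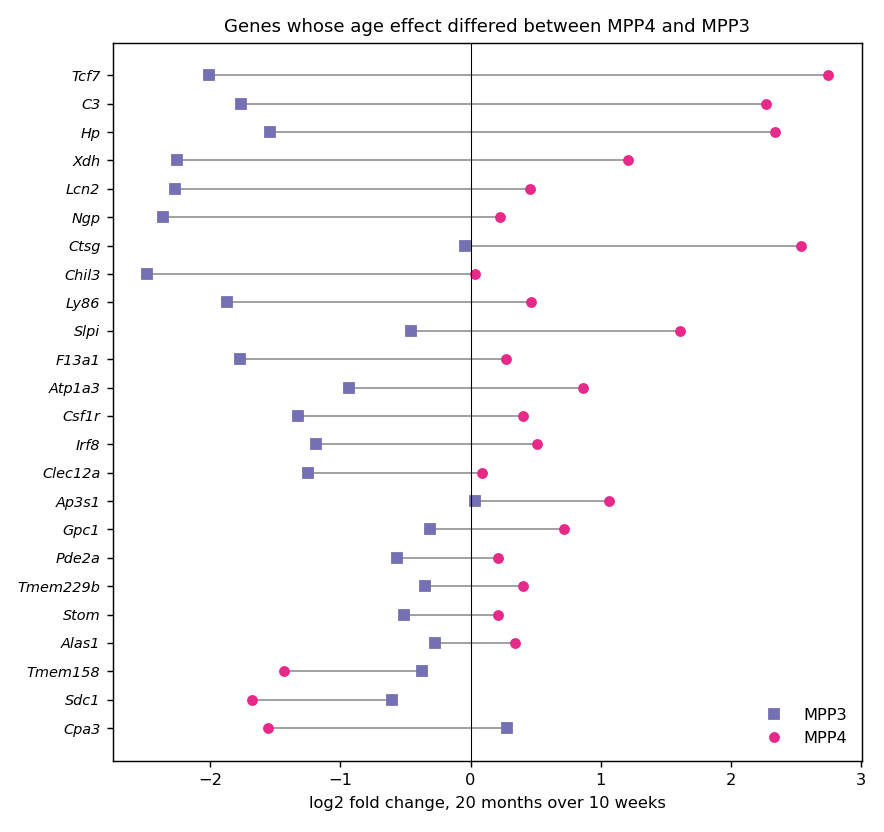
Log2 fold change of Aged over Young cells (x axis) in MPP4 (circles) and MPP3 (squares) for 24 of the 25 genes whose age effect differed between the fractions (y axis), joined by a line for each gene. From Alas1 upwards 21 genes lie further right in MPP4, and Chil3, Ngp and Lcn2 sit near 0 in MPP4 and below -2 in MPP3, and the 3 lowest genes lie further left in MPP4.

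Against the mean of MPP1, MPP2 and MPP3, 18 genes (0.127%) had a greater and 25 (0.177%) a smaller age effect in MPP4. Sdc1 (ENSMUSG00000020592.14, chromosome 12, 8771323 to 8793715, plus strand) was at 153 and 161 CPM in Young and 50.7 and 47.6 CPM in Aged MPP4 and at 23.2 and 27.5 against 30.9 and 33.7 CPM in MPP1 and 17.6 and 16.8 against 23.5 and 24.2 CPM in MPP2 (difference -1.75, SE 0.15, adjusted p = 2.41e-06). Jchain was at 36.1 and 40.3 against 53.7 and 58.5 CPM in MPP2 and 53 and 51.1 against 24.2 and 21.6 CPM in MPP3 (difference -4.45, SE 0.68, adjusted p = 0.00306, lost when Young replicate 2 or either Aged replicate was left out, up to 0.0425 without Aged replicate 2). Plxdc2 was at 102 and 96.4 against 71.5 and 73.4 CPM in MPP1 and 48.4 and 49 against 14.5 and 15.9 CPM in MPP3 (difference -2.57, SE 0.40, adjusted p = 0.0026, lost when Young replicate 1 or either Aged replicate was left out, up to 0.0519 without Aged replicate 2). The cytokine-induced genes Socs2 and Cish, signalling inhibitors downstream of Stat5, were among the 25, with log2 fold changes of -1.49 and -1.44 in MPP4 against -0.63 and -0.73 in MPP3. So were S1pr1 (difference -1.06, SE 0.15, adjusted p = 9.49e-04), Irf1 (-0.71, SE 0.12, adjusted p = 0.00307) and Bhlhe40 (-1.32, SE 0.20, adjusted p = 0.00198). Socs2, Cish, S1pr1, Irf1 and Bhlhe40 were picked from the 25 after their values were seen. On the greater side Clec1a, Hp, C3 and Xdh had the largest differences (7.33, SE 1.18, adjusted p = 0.00366 for Clec1a, a fit that rests on 0 counts in Young MPP4 and was not called without any one of the 4 libraries, up to 0.0764 without Young replicate 1), and the dendritic and monocytic gene Irf8 (1.00, SE 0.15, adjusted p = 0.00183) was among them. The counts were 4 greater and 12 smaller without Young replicate 1, 7 and 14 without Young replicate 2, 3 and 5 without Aged replicate 1, and 1 and 4 without Aged replicate 2, and they rose to 116 and 102 when only the libraries of MPP1 to MPP4 were fitted.

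CLPs, the next stage of the lymphoid path, differed widely from MPP4 in their response to age: 1440 genes (10.2%) had a greater and 1059 (7.48%) a smaller log2 fold change in MPP4, and the latter were 670 without Aged replicate 1. For 37 of 43 S phase genes, 38 of 54 genes of G2 and M phase, 51 of 76 of oxidative phosphorylation and 30 of 40 proteasome genes the effect was greater in MPP4, and for none of these lists smaller in any gene. The effect was smaller in MPP4 for 16 of 29 genes of cholesterol and fatty acid synthesis and 19 of 35 megakaryocyte and platelet genes, with 0 greater in either list. For the interferon response 20 of 50 were smaller and 2 greater. In CLPs 16 of the megakaryocyte and platelet genes were called higher with age, and Ppbp was at 0.822 and 0.972 against 31.1 and 15.1 CPM there (difference -8.65, SE 1.05, adjusted p = 4.50e-06). Fcna, Id1, Cd5l and Cyp11a1 had no counts in either Aged CLP library (22.7 and 24.8 against 0 and 0 CPM for Fcna and 15.9 and 12 against 0 and 0 CPM for Cyp11a1), so their fitted differences have no fixed size.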

How the data were processed

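RNA-seq was analysed from 4 MPP4 libraries, within a series of 32 libraries in 16 groups of 2, with the groups taken from the sample labels. Per the study's methods, RNA was amplified with a SMARTer kit for ultra-low input and read as single ends, and the authors aligned the reads to mm10 with TopHat2 2.0.13 and Bowtie2 2.1.0 and deposited raw gene counts made with StringTie. No molecular identifiers were used and strand is not stated, so near-identical and overlapping genes share reads and counts from amplified RNA are not counts of independent molecules. The deposited comparison tables of the authors, with fold changes and p-values, were not used.

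Counts of the 24421 genes were scaled by TMM and tested in R 4.3.3 with edgeR 4.0.16, by its quasi-likelihood test, in 1 model of all 32 libraries, so that the spread was shared over 16 residual degrees of freedom, with the filter of edgeR at a minimum count of 10 leaving 14154 genes. Calls required a Benjamini-Hochberg adjusted p under 0.01 within each contrast. Differences of age effects were contrasts of the same model. Log2 fold changes against a group at 0 counts are given as bounds against 3 counts per library. Alternatives were DESeq2 1.42.0, its size factors, no filter, a replicate block, a fit of only the libraries compared, other thresholds and leaving out each MPP4 library. In counts simulated for the MPP4 comparison on 13991 genes, 70% of changes of 1 and 94% of changes of 2 on the log2 scale were recovered, with 1 false call. The changes were placed only in Aged MPP4 and only in genes above a set mean count, with no other age effect simulated. Recovery in genes of low count was not tested. Exact permutation of 2 against 2 libraries cannot give a p below 0.33, so none was used. Gene positions are from GENCODE M21 (GRCm38, the same as mm10). Duplicates differed by more than sampling noise and were counted as separate libraries.

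Genes were named by rule: the 12 largest changes in each direction among called genes of at least 5 CPM, genes the study names for progenitors, up to 4 called genes of each list and direction with the smallest adjusted p, the 4 largest differences in each direction between fractions, the 6 largest gains and losses in CPM, and the sort antigens. The comparison, the gene lists and this rule were chosen with earlier results of these data known, and genes with date-like names were not named, and some genes that the rule names are not reported here.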

Additional observations from a re-analysis of the deposited data

Results flagged for a closer look

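The results below stand out because the age effect in MPP4 differed from that in another fraction by the test of the difference itself, with edgeR and Benjamini-Hochberg adjustment, and each value is the log2 fold change with age in MPP4 minus that in the other fraction. Against MPP3 the values were -1.83 for Cpa3, -1.07 for Sdc1, -1.06 for Tmem158, 0.61 for Alas1, 3.46 for Xdh, 3.88 for Hp, 4.03 for C3 and 4.75 for Tcf7. Alas1, which encodes the first enzyme of heme synthesis, was at 57.9 and 63.8 against 74.4 and 79.3 CPM in MPP4 and 91.4 and 88.4 against 75.6 and 73.1 CPM in MPP3, and its difference was lost without Young replicate 1 (adjusted p 0.0253) or Aged replicate 2 (0.0354).

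Against the mean of MPP1, MPP2 and MPP3 the values were -4.45 for Jchain, -2.57 for Plxdc2, -1.75 for Sdc1, -1.67 for Fam110c, 2.14 for Xdh, 2.70 for Hp, 3.41 for C3 and 7.33 for Clec1a. Fam110c was at 5.94 and 7.08 against 1.11 and 1.3 CPM in MPP4, and its difference was lost without Young replicate 2 (0.0138), Aged replicate 1 (0.0364) or Aged replicate 2 (0.0246). Hp was lost without Young replicate 1 (0.0693), Aged replicate 1 (0.0245) or Aged replicate 2 (0.0279), Xdh without Young replicate 1 (0.0764), Young replicate 2 (0.0147) or Aged replicate 2 (0.2), and C3 without any one of the 4 libraries, up to 0.0646 without Aged replicate 2.

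Against CLPs the fitted values were -14.74 for Treml1, -10.74 for Mfsd2b, -10.27 for Naip6, -8.65 for Ppbp, 7.92 for Cd5l, 7.93 for Id1, 8.05 for Fcna and 9.16 for Cyp11a1. For Treml1, Mfsd2b, Naip6, Cd5l, Id1, Fcna and Cyp11a1 at least one of the 4 groups compared had 0 counts in both libraries, so the size depends on the prior count and is no estimate of a fold. Id1, an inhibitor of differentiation factors, was at 8.85 and 8.29 against 11.2 and 12.7 CPM in MPP4 and 1.23 and 1.94 against 0 and 0 CPM in CLPs. Naip6, which has near-identical relatives, was at 5.07 and 3.42 against 4.23 and 2.67 CPM in MPP4 and 0 and 0 against 12.2 and 5.94 CPM in CLPs. The differences of Mfsd2b and Cd5l were lost without Young replicate 2 (adjusted p 0.011 and 0.0104), and that of Cd5l also without Young replicate 1 (0.0116) or Aged replicate 1 (0.0234).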

How the results depend on the processing

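Over the age effect in MPP4 the direction held for every named gene called, and the number of calls moved. Genes called higher (1459) numbered 772 with only the 4 MPP4 libraries fitted, 106 at a log2 change of at least 1 and 758 to 1190 with one library left out. Genes called lower (888) numbered 1611 with the Wald test of DESeq2, 1582 at an adjusted p under 0.05, 321 at a log2 change of at least 1 and 411 to 592 with one library left out. Of 208 named genes called, 208 kept their call with the Wald test, 201 with size factors of DESeq2, 200 without the filter, 174 with only the 4 libraries, and 162 to 181 with one library left out. Against MPP3, the 22 genes with a greater effect were 57 with the Wald test, 36 at an adjusted p under 0.05 and 5 to 12 with one library left out, and the 3 with a smaller effect were 21, 9 and 1 to 3. Against the mean of MPP1 to MPP3, the 18 greater were 116 with only the libraries compared, 90 with the Wald test, 70 at an adjusted p under 0.05, 9 at a difference of at least 1 and 1 to 7 with one library left out, and the 25 smaller were 102, 114, 58, 13 and 4 to 14. Against CLPs, the 1440 greater were 815 with only the libraries compared, 329 at a difference of at least 1 and 1043 to 1379 with one library left out, and the 1059 smaller were 1697 with the Wald test, 1744 at an adjusted p under 0.05, 504 at a difference of at least 1 and 670 to 831 with one library left out. The causes were not tested.

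The replicate numbers did not pair the ages within MPP4: deviations of same-numbered Young and Aged MPP4 libraries correlated at 0.0239. Whether same-numbered libraries of different fractions at one age deviate together was not tested. With the replicate number as a block, 1492 genes were called higher and 890 lower in MPP4, 21 greater and 1 smaller against MPP3, 22 and 24 against MPP1 to MPP3, and 1479 and 1061 against CLPs, and 207 of the 208 named genes kept their call. The change of Clu, not called, turned from -0.08 to 0.59 without Young replicate 2 and was -0.61 without Young replicate 1, and that of Naip6, not called, from -0.31 to 0.0094 without Young replicate 1 and was -0.67 without Aged replicate 1. A library left alone in its group was assumed to vary like the others. Values under 0.186 to 0.228 CPM, which correspond to 3 counts, are imprecise by counting error alone.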

Other observations

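Genes of antioxidant defence and detoxification moved in both directions in Aged MPP4, with 9 of 36 called higher and 5 lower (median log2 fold change 0.15), against 10.3% and 6.27% of all genes. The thiol antioxidants Prdx1 (437 and 488 against 737 and 736 CPM, log2 fold change 0.67) and Txn1 (166 and 192 against 251 and 247 CPM, log2 fold change 0.48) were higher, Txn1 being chosen after its value was seen, and Cat, which encodes catalase, was lower (216 and 214 against 159.9 and 159 CPM, log2 fold change -0.43). The number called higher was 4 without Young replicate 1 and 5 without Aged replicate 2, and the number lower was 3 without Aged replicate 1. Chromatin regulators of the polycomb, trithorax and DNA methylation list had 7 of 44 called higher and 3 lower, with a median of -0.15. The share called lower, 6.82%, was close to that of all genes. The histone methyltransferase gene Ezh2, likewise chosen later, was higher (91.3 and 98.6 against 112 and 123 CPM, log2 fold change 0.30), as was the maintenance DNA methyltransferase gene Dnmt1 (496 and 465 against 743 and 777 CPM, log2 fold change 0.66), while the polycomb gene Cbx7 (23 and 21.9 against 13.8 and 11.1 CPM, log2 fold change -0.85) and the demethylase gene Kdm6b (18.1 and 16.3 against 8.09 and 9.04 CPM, log2 fold change -1.01) were lower. The call of Cbx7 was lost without Young replicate 1 (adjusted p 0.0103) or Aged replicate 2 (0.0226), and that of Kdm6b without any one of the 4 libraries, up to 0.0533 without Aged replicate 1. With one library left out 3 to 6 were called higher and 0 to 4 lower, the fewest higher without Young replicate 1 and the fewest lower without Aged replicate 2.

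Genes of the Bcl2 family, which set the threshold for cell death, had 1 of 20 called higher, Bax (35.8 and 40.7 against 52.7 and 51.6 CPM, log2 fold change 0.45), and 2 lower, Mcl1 and Bbc3 (25.7 and 22 against 15.2 and 16.2 CPM, log2 fold change -0.61). The shares were 5.0% and 10.0%, against 10.3% and 6.27% of all genes. Without Young replicate 1, Aged replicate 1 or Aged replicate 2 the list had 0 called higher and 1 lower by edgeR, against 5 higher at an unadjusted p under 0.05 with all libraries. The adjusted p of Bax was then 0.0881, 0.0258 and 0.0201, and that of Bbc3 0.0931, 0.0574 and 0.028. Of 10 histone genes outside the clusters 3 were called higher and 2 lower, with the variant gene H2afz at 874 and 1011 against 1505 and 1426 CPM (log2 fold change 0.64) and H3f3b at 1858 and 1765 against 1328 and 1390 CPM (log2 fold change -0.41), and 1 was called higher without Young replicate 1 and 1 lower whichever of the 4 libraries was left out. Of 20 stromal and endothelial genes 5 were called lower, Eng (155 and 162 against 115 and 117 CPM, log2 fold change -0.44) and Angpt1 (397 and 415 against 227 and 226 CPM, log2 fold change -0.85) among them, and 1 to 3 were called with one library left out. Angpt1 lost its call without any one of the 4, up to an adjusted p of 0.0267 without Aged replicate 2.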
